A study of Mus musculus with 9 samples.

Results

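The genes described here are 9 members of the synaptotagmin family: the synaptotagmins Syt1, Syt2, Syt4, Syt6 and Syt11 and the synaptotagmin-like genes Sytl1, Sytl2, Sytl4 and Sytl5. They were measured in mouse embryonic cerebral cortex with and without Sfpq, which encodes a nuclear RNA-binding protein of transcription and RNA processing. A gene was represented by the probe sets that the platform table assigns to it alone. The 9 genes have 168 such probe sets, and 114 were bright enough to be kept. All 9 members were among the 16854 genes tested, and the family as annotated holds 22 genes. The set was chosen by gene means in Sfpq-/- cortex, where Sytl5 and Syt1 were low, so every value of these 9 genes that uses the Sfpq-/- arrays is a description. Where such a gene or probe set is counted as called, the call only states the size of its difference against its spread, and supports nothing.

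RNA of cerebral cortex from E13.5 embryos was measured on Affymetrix Mouse Exon 1.0 ST arrays, 1 for each sample. The 3 groups of 3 samples were control embryos of wild-type genotype, embryos labelled Sfpq+/- and embryos labelled Sfpq-/-. The labels name no treatment and give neither the deleted part of Sfpq, a Cre driver, the strain, the litter nor the sex. Whether a group's samples came from different litters is not said, so a p-value reflects the spread among the arrays at hand and no more. The RNA extraction text lists Sfpq+/- a second time where Sfpq-/- would stand, and the genotype fields were used for the groups.

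Synaptotagmins are membrane-anchored proteins with tandem C2 domains, many of which bind calcium and phospholipid and so couple a rise in calcium to vesicle fusion by the SNARE complex. Syt1 and Syt2 are the fast calcium sensors of transmitter release, while Syt4 and Syt11 are members whose calcium binding is altered or lost. Synaptotagmin-like proteins carry tandem C2 domains without the membrane anchor, and most bind the small GTPase Rab27 and tether vesicles and granules to the plasma membrane. In developing cortex, synaptic genes are mostly switched on in young neurons.

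The 3 members with the largest differences between genotypes were Syt1 and Sytl5, which were low in Sfpq-/- cortex, and Syt6, which was high. The windows below hold the 250 bases before an annotated start of each, from RefSeq on GRCm38.p6, read along the gene's strand. They are shown so that the genes that differed can be read beside the sequence before an annotated start. Whether these windows regulate the genes was not tested. Capitals mark GGGCGG (the GC box); TGACG (the core of the CRE), TATAAA (the TATA box) and CAGATG (an E-box) were searched too, on both strands. No marked motif overlaps another.

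Syt1, chr10:109010976-109011225, minus strand: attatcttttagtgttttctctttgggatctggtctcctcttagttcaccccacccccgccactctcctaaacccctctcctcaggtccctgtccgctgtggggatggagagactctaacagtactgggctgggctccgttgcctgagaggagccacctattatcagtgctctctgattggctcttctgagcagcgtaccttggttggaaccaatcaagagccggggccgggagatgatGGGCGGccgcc

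Sytl5, chrX:9885371-9885620, plus strand: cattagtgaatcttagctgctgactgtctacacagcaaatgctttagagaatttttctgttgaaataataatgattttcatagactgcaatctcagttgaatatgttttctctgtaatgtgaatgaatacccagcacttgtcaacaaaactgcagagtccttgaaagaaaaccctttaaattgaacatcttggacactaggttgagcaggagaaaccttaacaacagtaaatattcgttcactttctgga

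Syt6, chr3:103574995-103575244, plus strand: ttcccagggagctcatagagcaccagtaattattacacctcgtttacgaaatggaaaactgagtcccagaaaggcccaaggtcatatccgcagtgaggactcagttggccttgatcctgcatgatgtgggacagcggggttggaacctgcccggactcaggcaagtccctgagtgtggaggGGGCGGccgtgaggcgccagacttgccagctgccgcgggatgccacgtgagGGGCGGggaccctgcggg

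The Syt1 window has 1 GC box and a GC content of 56.4%, and the Syt6 window has 2 GC boxes and a GC content of 60.4%. The Sytl5 window has none of the 4 motifs and a GC content of 35.2%, against a median of 52.4% over all 32851 windows. GGGCGG is present in 32.7% of all windows, TGACG in 17.8%, TATAAA in 12.4% and CAGATG in 14.4%. A match is a description of the letters, and no match says only that they are not in this window. A window before another Syt1 start, chr10:109009112-109009361, holds none of the 4 motifs and has a GC content of 42.8%. Other Syt6 windows hold 1 or 2 GC boxes. A start was listed for 7 of the 9 members, and the Sytl5 start lies inside the gene's annotated span.

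Sfpq itself was examined first. Its gene level, the mean log2 signal of its kept probe sets, was 10.33, 10.19 and 9.88 on the control arrays, 10.53, 10.15 and 10.09 on the Sfpq+/- arrays, and 8.94, 9.27 and 8.74 on the Sfpq-/- arrays. All 3 Sfpq-/- arrays lay below the other 6, and Sfpq fell in Sfpq-/- against control (log2 difference -1.15, SE 0.16, limma adjusted p = 0.000787). The Sfpq+/- arrays were not set apart from controls (log2 difference 0.12, limma adjusted p = 0.9), so Sfpq signal does not check the Sfpq+/- label. Array medians ran from 5.648 to 5.697, and arrays of a group correlated at 0.983 or more. Cortical identity markers were bright on all arrays, with mean levels between 10.2 and 10.49 over the 9 that were tested.

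Across all genes, limma called 1032 of 16854 lower (6.12%) and 1008 higher (5.98%) in Sfpq-/- than in control cortex at an adjusted p under 0.05. Among the 9 members, 2 were called lower (Syt1 and Sytl5) and 1 higher (Syt6). Arrays did not overlap between these groups for 4 members, against 26.9% of all genes: Syt1, Syt11 and Sytl5 lay below and Syt6 above. These counts use the contrast that chose the genes, and nothing is read from them. The median log2 difference of the members was 0.04, beside 0.03 for all genes tested. The count for all genes was 1342 without control replicate 2 and 1310 without Sfpq-/- replicate 1, while the same count of 3 members was found without any 1 array.

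**Figure D1:**
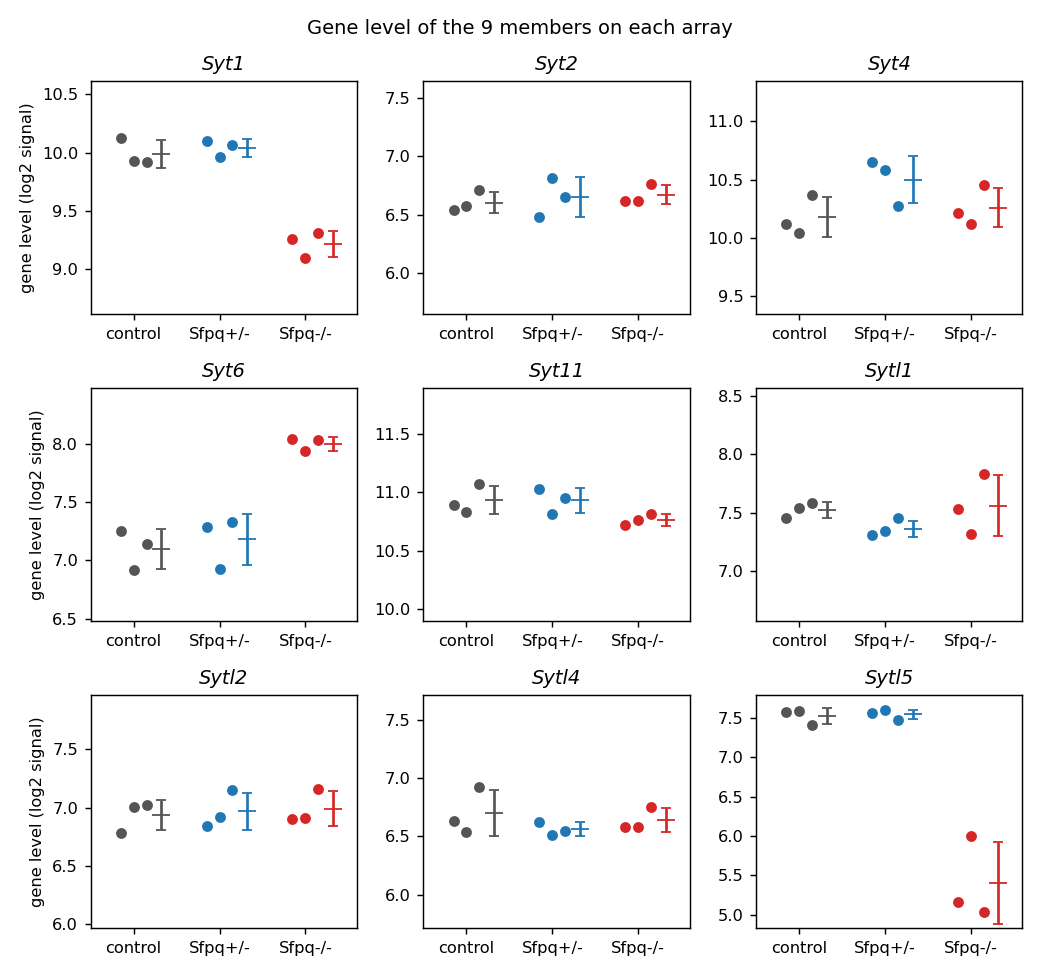
Gene level (log2 signal, mean of kept probe sets) of the 9 members on each of the 9 arrays, 1 point per array, with the mean and SD of each group of 3 beside the points. The Sfpq-/- points of Syt1 (9.10 to 9.31) and Sytl5 (5.03 to 6.0) lie below all others and those of Syt6 (7.94 to 8.04) above; panels have their own vertical range.

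Syt1, the main calcium sensor for fast transmitter release, had levels of 10.13, 9.93 and 9.92 on the control arrays, 10.10, 9.96 and 10.07 on the Sfpq+/- arrays, and 9.26, 9.10 and 9.31 on the Sfpq-/- arrays. The first 2 groups covered the same range and every Sfpq-/- array lay below both. The group means were 9.99 ± 0.12, 10.04 ± 0.08 and 9.22 ± 0.11 (SD, n = 3). The Sfpq-/- mean was lower than control by 0.77 on the log2 scale (SE 0.09), a 1.71-fold difference, and lower than Sfpq+/- by 0.82, a 1.77-fold difference. In a tissue sample, fewer cells of a type and less RNA per cell cannot be told apart.

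The Syt1 probe sets did not all behave alike. Of 23 kept, 20 had a lower mean in Sfpq-/- than in control and 3 a higher one, with a median log2 difference of -1.04. The number called lower was 14, and none was called higher. Over all kept probe sets of the array, most of them outside the genes tested, 1.19% were called lower and 0.561% higher in this comparison. The brightest, probe set 5532634, had log2 signals of 11.94, 11.49 and 11.79 on control arrays and 11.08, 10.39 and 10.88 on Sfpq-/- arrays. Probe set 5532218 differed most, with 9.55, 9.40 and 9.21 on control arrays, 9.58, 8.82 and 9.44 on Sfpq+/- arrays, and 7.38, 7.98 and 8.22 on Sfpq-/- arrays. Its group means differed by -1.53, close to those of probe sets 5331361 (-1.38) and 4899617 (-1.37).

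A pair of Syt1 probe sets went the other way. Probe set 5343265 had log2 signals of 8.85, 8.54 and 7.77 on control arrays and 9.34, 10.03 and 9.41 on Sfpq-/- arrays. Probe set 4962303 had 7.15, 6.82 and 6.0 on control arrays and 7.82, 7.91 and 7.75 on Sfpq-/- arrays. In both, each Sfpq-/- array lay above each control array, by 1.21 and 1.17 on average, although neither was called higher. Their control arrays spread more than those of most Syt1 probe sets, with SDs of 0.55 and 0.59. The Sfpq+/- means of the same probe sets were 8.60 and 7.34. The place of these probe sets in the gene was not analysed here. With the stricter filter on dim probe sets, the Syt1 gene difference was -0.90.

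**Figure D2:**
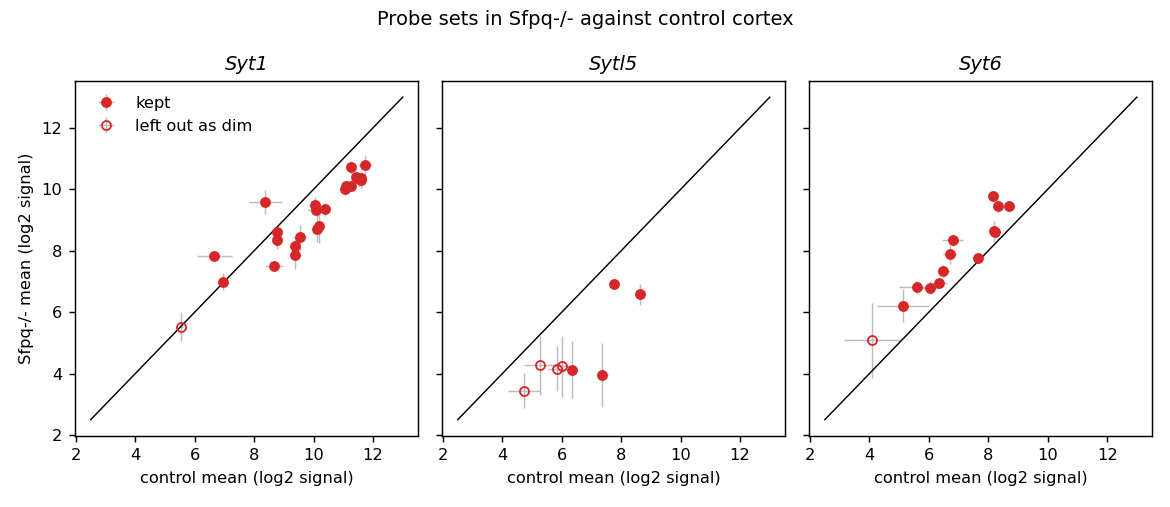
Mean log2 signal of each Syt1, Sytl5 and Syt6 probe set in control (horizontal) and Sfpq-/- cortex (vertical), with SDs over 3 arrays as bars and the line of equal signal. Hollow points are probe sets left out as dim; most Syt1 and all Sytl5 points lie below the line, 3 kept Syt1 points lie on or above it, and the Syt6 points lie above it.

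Syt2, the fast sensor used by many hindbrain and spinal synapses, had levels between 6.48 and 6.81 on all 9 arrays. Its control mean was 6.60 ± 0.09, its Sfpq+/- mean 6.65 ± 0.17 and its Sfpq-/- mean 6.67 ± 0.08 (SD, n = 3), and the groups overlapped. Of its 10 kept probe sets, 4 were lower and 6 higher in Sfpq-/- than in control, with log2 differences from -0.38 to 0.48.

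Syt4, an activity-regulated member found on dense-core vesicles, had levels of 10.12, 10.04 and 10.37 on control arrays, 10.65, 10.58 and 10.27 on Sfpq+/- arrays and 10.21, 10.12 and 10.45 on Sfpq-/- arrays. The highest values were on Sfpq+/- arrays 1 and 2, but Sfpq+/- array 3 lay within the control range. The Sfpq-/- mean was above control by 0.08 (SE 0.13) and below Sfpq+/- by 0.24. All 12 Syt4 probe sets had a higher mean in Sfpq+/- than in control, by 0.16 to 0.50; they read 1 transcript on the same arrays and are not independent.

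Syt11, a vesicle-trafficking member abundant in brain, had levels of 10.89, 10.83 and 11.07 on control arrays, 11.03, 10.81 and 10.95 on Sfpq+/- arrays and 10.72, 10.76 and 10.81 on Sfpq-/- arrays. The Sfpq-/- arrays were the lowest, by a narrow margin, and the mean was below control by 0.16 (SE 0.09), a 1.12-fold difference. All 6 kept Syt11 probe sets had a lower mean in Sfpq-/- than in control, from -0.28 to -0.02, and none was called.

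Syt6, a member known from acrosomal exocytosis in sperm and also expressed in brain, had levels of 7.25, 6.92 and 7.14 on control arrays, 7.29, 6.93 and 7.33 on Sfpq+/- arrays and 8.04, 7.94 and 8.03 on Sfpq-/- arrays. Controls and Sfpq+/- overlapped, although the Sfpq+/- values of 7.29 and 7.33 lay above the highest control, and each Sfpq-/- array was above both groups. The Sfpq-/- mean of 8.0 ± 0.06 (SD, n = 3) was above control by 0.90 (SE 0.12), a 1.87-fold difference, and above Sfpq+/- by 0.82. All 13 kept probe sets had a higher mean in Sfpq-/- than in control, by 0.11 to 1.61 with a median of 0.86. Of these, 4 were called higher. Probe sets 4930794 and 4782251 had control means of 5.13 and 5.61, under the limit of 5.64 for dim probe sets. Their Sfpq-/- means of 6.21 and 6.81 entered the filter, so the count of 13 depends in part on it. The probe set left out as dim also had a higher mean, by 1.02.

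The Syt6 difference was uneven along its probe sets. The brightest, probe set 4779024, went from 8.65, 8.63 and 8.85 on control arrays to 9.42, 9.38 and 9.58 on Sfpq-/- arrays. Probe set 4982318 differed most and went from 8.20, 7.96 and 8.34 to 9.91, 9.75 and 9.68. Probe set 5343555 differed least, from 7.41, 7.70 and 7.80 to 7.89, 7.75 and 7.61, with overlapping arrays.

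Sytl5, a Rab27-binding member, had levels of 7.58, 7.59 and 7.41 on control arrays, 7.57, 7.60 and 7.48 on Sfpq+/- arrays and 5.16, 6.0 and 5.03 on Sfpq-/- arrays. The first 2 groups were nearly the same, and the Sfpq-/- arrays lay far below them and apart from one another. The group means were 7.53 ± 0.10, 7.55 ± 0.06 and 5.40 ± 0.52 (SD, n = 3). The measured difference of the Sfpq-/- mean was -2.13 from control (SE 0.20) and -2.15 from Sfpq+/-. The Sfpq-/- mean lay under the limit of 5.64 used for dim probe sets, so these sizes are not exact and no fold is given. The highest Sytl5 value of the group was on array 2, which also had the highest Sfpq value of the group (9.27). Syt1, also low in Sfpq-/-, had its lowest value of the group on that array (9.10). A link of either gene with the Sfpq level was not tested. Without Sfpq-/- array 2 the Sytl5 difference from control was -2.43.

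Sytl5 rests on few probe sets. The 4 that were kept had lower means, by 0.83 to 3.42, and were called; this was fixed in part by the choice of the gene. Probe sets 4807447 and 5181441 had Sfpq-/- means of 3.94 and 4.13 and passed the filter on dim probe sets through the control and Sfpq+/- arrays. Probe set 4724567, the brightest, had log2 signals of 8.68, 8.69 and 8.55 on control arrays, 8.43, 8.50 and 8.31 on Sfpq+/- arrays and 6.23, 6.92 and 6.60 on Sfpq-/- arrays. Probe set 4807447 had 7.55, 7.39 and 7.13 on control arrays and 3.73, 5.07 and 3.03 on Sfpq-/- arrays, and probe set 5515474 had 7.76, 7.77 and 7.74 and then 6.83, 6.83 and 7.11. The 4 probe sets left out as dim also had lower means, by 1.00 to 1.77. With the stricter filter Sytl5 kept too few probe sets for a value.

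Sytl4 and Sytl5 lie on the X chromosome, and the arrays differed in Xist, the RNA of X inactivation. Its level was 11.79, 11.65 and 5.29 on control arrays, 4.90, 5.20 and 5.87 on Sfpq+/- arrays and 11.48, 5.06 and 5.19 on Sfpq-/- arrays. Xist was therefore high on 2 control arrays, on no Sfpq+/- array and on 1 Sfpq-/- array. With the Xist level as a covariate, the Sytl5 difference from control was -2.17 in Sfpq-/-. That of Sytl4 moved from -0.06 to -0.14 in Sfpq-/- and from -0.14 to -0.28 in Sfpq+/-. The low Sytl5 arrays include 1 with high and 2 with low Xist, and the part of sex in the Sytl5 values was not tested.

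The other synaptotagmin-like genes gave no such separation. Sytl4, or granuphilin, which docks secretory granules, had levels of 6.63, 6.54 and 6.92 on control arrays, 6.62, 6.51 and 6.55 on Sfpq+/- arrays and 6.58, 6.58 and 6.75 on Sfpq-/- arrays. Sytl1, a Rab27 effector known from granule-secreting cells, had levels of 7.45, 7.54 and 7.58, then 7.31, 7.34 and 7.45, then 7.53, 7.32 and 7.83 in the same order. All 3 of its Sfpq+/- arrays lay below the controls, by a margin that rounds away at the nearest pair. Sytl2, another Rab27 effector with many isoforms, ranged from 6.78 to 7.16 over the 9 arrays with all groups overlapping. Only 15 of its 43 probe sets passed the filter on dim probe sets. In Sfpq-/- against control, Sytl1 differed by 0.04 (SE 0.12), Sytl2 by 0.05 (SE 0.11) and Sytl4 by -0.06 (SE 0.10).

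**Figure D3:**
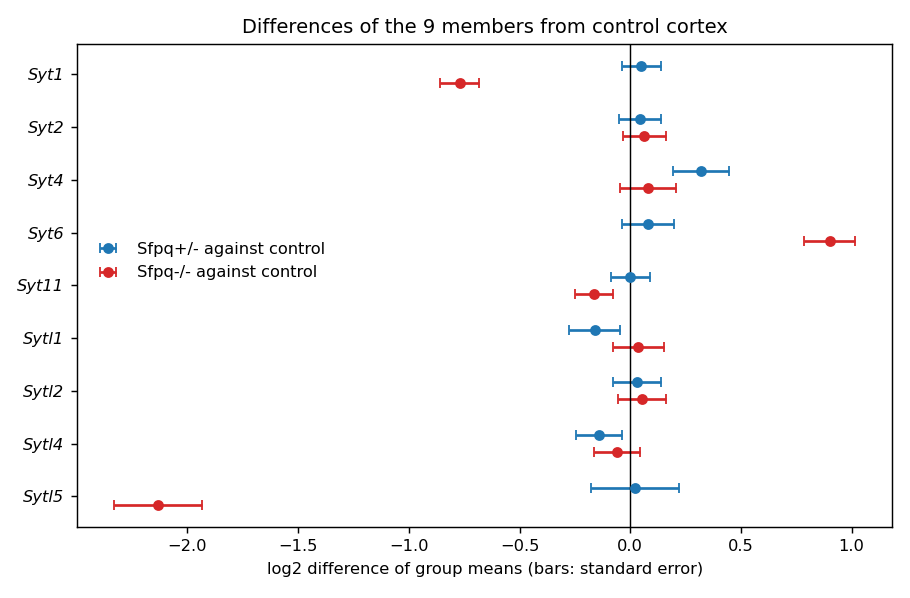
Log2 difference of group means from control for each of the 9 members, in Sfpq+/- and Sfpq-/- cortex, with the standard error as bars; both comparisons share the 3 control arrays. Sfpq-/- differences of Syt1 (-0.77), Syt6 (0.90) and Sytl5 (-2.13) stand away from 0, and the Sfpq+/- differences run from -0.16 to 0.32.

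Sfpq+/- against control did not enter the choice of the genes, and it was tested. No member was called by limma, where 0% of the 16854 genes were called lower and 0% higher. At an unadjusted p under 0.05 there were 715 genes, 1 of them a member, Syt4, with a log2 difference of 0.32 (95% interval 0.04 to 0.60, limma adjusted p = 0.886). The Syt1 difference was 0.05 (95% interval -0.15 to 0.25, limma adjusted p = 0.922). That of Sytl5 was 0.02 (95% interval -0.42 to 0.46, limma adjusted p = 0.988), and that of Syt6 was 0.08 (95% interval -0.18 to 0.34, limma adjusted p = 0.902). The differences of the other 5 members ran from -0.16 for Sytl1 to 0.04 for Syt2, with limma adjusted p of 0.886 or more. For 1 member, Sytl1, the arrays did not overlap, against 12.5% of all genes. Among all kept probe sets, 0% were called lower and 0% higher, and no member's probe set was called.

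Sfpq-/- against Sfpq+/- uses the same Sfpq-/- arrays as the comparison with control and is no second test of the members. Of all genes, 7.25% were called lower and 4.58% higher, and the members called were again Syt1 and Sytl5, lower, and Syt6, higher. Arrays did not overlap for 4 of the 9 members, against 26.9% of all genes. Among the members' 114 probe sets, 18 were called lower and 4 higher, where 1.5% and 0.425% of all kept probe sets were called. These calls lay in Syt1 (15) and Sytl5 (3), lower, and Syt6 (4), higher, and probe sets of 1 gene are not independent. Of the 628415 kept probe sets, 248590 lie in genes tested, so these shares are not those of gene probe sets alone. Against control the members' counts were also 18 and 4, from the same genes, and the total of 22 was 14 without control replicate 2. Without Sfpq+/- replicate 1 the total against Sfpq+/- was 14.

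The other family genes were no part of the set chosen on Sytl5 and Syt1, but their list too was drawn up with earlier results known. Of the 21 genes listed as other synaptotagmins and C2 domain relatives, 20 were tested in Sfpq-/- against control. Limma called 7 higher and 2 lower, where 5.98% and 6.12% of all genes were called, and the median log2 difference was 0.06 beside 0.03 for all genes. Syt9, a fast calcium sensor related to Syt1, had levels of 8.84, 8.86 and 8.78 on control arrays, 8.80, 8.91 and 8.95 on Sfpq+/- arrays and 7.66, 7.82 and 7.66 on Sfpq-/- arrays. It fell in Sfpq-/- by 1.11 (SE 0.08, limma adjusted p = 5.63e-06), and all Sfpq-/- arrays were below the other 6.

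Syt17 rose by 0.64 (limma adjusted p = 0.000262), from 7.62, 7.62 and 7.61 on control arrays to 8.27, 8.24 and 8.25 on Sfpq-/- arrays. Doc2b, a soluble calcium sensor for spontaneous release, rose by 0.63 (limma adjusted p = 0.00015). Syt5 rose by 0.86, Syt13 by 0.60, Rph3a (rabphilin, a Rab3 and Rab27 effector) by 0.57 and Syt7, a slow high-affinity sensor, by 0.50 (limma adjusted p of 0.00274 or less). With the median of probe sets in place of the mean, the Rph3a difference was 0.45 and its call was lost (limma adjusted p = 0.123). Syt5 levels went from 10.70, 10.63 and 10.72 on control arrays to 11.46, 11.40 and 11.77 on Sfpq-/- arrays. Sytl3 has 1 probe set, which was dim, and was not tested.

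Esyt1, an extended synaptotagmin at membrane contact sites, rose by 0.35 (limma adjusted p = 0.0226) and Syt16 fell by 0.42 (limma adjusted p = 0.0243). Both calls were lost in 7 of 19 alternatives. Without control replicate 2 the Esyt1 difference was 0.36 (adjusted p = 0.0694 by limma), without control replicate 3 it was 0.33, without Sfpq-/- replicate 1 it was 0.35 and without Sfpq-/- replicate 2 it was 0.27. The Syt16 difference was -0.37 without control replicate 1 (adjusted p = 0.0827 by limma), -0.43 without control replicate 2, -0.46 without Sfpq-/- replicate 1 and -0.31 without Sfpq-/- replicate 2. In Sfpq+/- against control, 0 of the 20 genes passed, also at an unadjusted p under 0.05.

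The genes of the family span very different lengths of the genome. RefSeq spans were found for all 9 members: 513 kb for Syt1, 251 kb for Sytl5, 109 kb for Sytl2, 107 kb for Syt2, 70.3 kb for Syt6, 45.4 kb for Sytl4, 30.5 kb for Syt11, 10 kb for Sytl1 and 9.61 kb for Syt4. Among the genes tested that had a RefSeq span, 2254 were of at least 100 kb. In Sfpq-/- against control, 27% of these were called lower and 5.9% higher, beside 2.83% and 6.02% of the 14453 shorter ones. Of the 7 tested family genes of at least 100 kb, 4 were called lower (Syt1, Sytl5, Syt9 and Syt16) and 0 higher, with a median difference of -0.42. Syt1 and Sytl5 are the genes that chose the set, and the Syt16 call was lost in 7 of 19 alternatives. Of the 14 shorter ones, 0 were called lower and 5 higher, with a median of 0.07. Syt14, at 153 kb, differed by -0.05, and the long members Syt2 and Sytl2 by 0.06 and 0.05. Spearman's rho between span and difference was -0.46 over the 21 genes and -0.52 over the 12 that are not members, all read on the same 6 arrays. It was -0.29 without Syt1 and Sytl5. These are descriptions, and the choice of the members sets part of them.

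**Figure D4:**
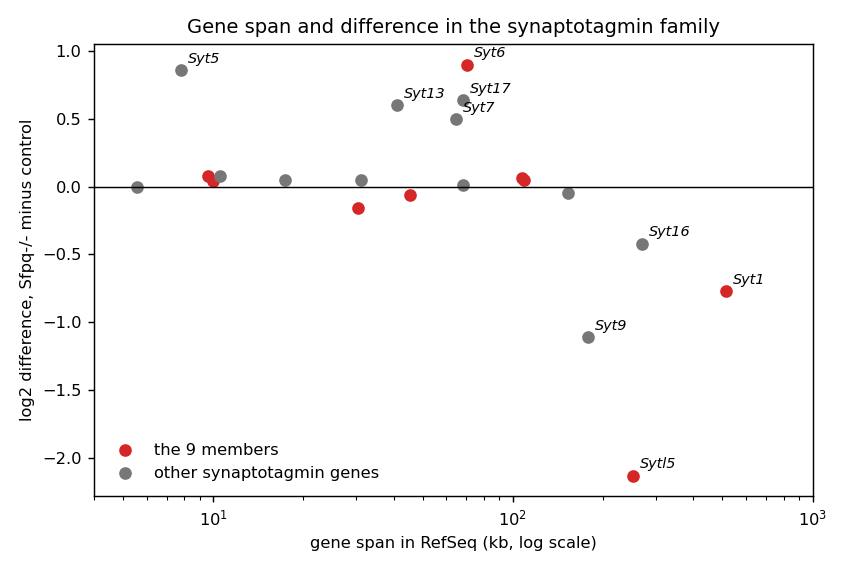
Log2 difference (Sfpq-/- minus control) against RefSeq gene span (kb, log scale) for the 21 tested synaptotagmin and synaptotagmin-like genes, members in red and others in grey. Genes called in either direction are named: Syt1, Sytl5, Syt9 and Syt16 lie low at spans of at least 100 kb, and Syt5, Syt6, Syt7, Syt13 and Syt17 lie high at shorter spans.

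The Rab proteins and effectors that work with synaptotagmin-like proteins formed a list of 20 genes, all tested. Of these, 0 were called higher and 1 lower in Sfpq-/- against control, with a median of 0.03. This and the next 3 lists are to be read against the 5.98% of all genes called higher and the 6.12% called lower. Rab3c, a vesicle-bound GTPase, fell by 0.60 (limma adjusted p = 0.00355), while Rab3d (-0.27, limma adjusted p = 0.0742) and Rab3ip (0.26, limma adjusted p = 0.0747) did not pass. The count was 2 without control replicate 1, 2 without Sfpq-/- replicate 2 and 3 without Sfpq-/- replicate 3.

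Among SNARE proteins and partners, the fusion machinery that synaptotagmins act on, 26 were tested, 4 rose and 2 fell, with a median of -0.03. Stxbp6 (amisyn, a syntaxin-binding protein) fell by 1.504 (limma adjusted p = 5.38e-06) and Napb, a SNARE-disassembly adaptor, by 0.63 (limma adjusted p = 0.000192). Stx2 rose by 0.54 and Cplx2, a complexin that clamps SNARE complexes, by 0.36 (limma adjusted p = 0.00167 and 0.0119). Stxbp2 (0.34) and Stx3 (0.31) also passed. The Stxbp2 call was lost without control replicate 2 (0.33), control replicate 3 (0.31) and Sfpq-/- replicate 1 (0.31), and that of Stx3 without the same 3 arrays (0.27, 0.32 and 0.28). The Stx3 call was lost in 7 of 19 alternatives in all, among them the stricter filter (0.22) and the median of probe sets (0.21, limma adjusted p = 0.272).

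All 18 genes of the active zone and vesicle priming were tested, and 0 rose and 4 fell, with a median of -0.07. Cadps, which primes dense-core vesicles, fell by 1.43 (limma adjusted p = 8.3e-06), the scaffold gene Erc2 by 0.91 (limma adjusted p = 0.000111) and Cadps2 by 0.47 (limma adjusted p = 0.00512), a call lost with the median of probe sets (-0.45, limma adjusted p = 0.0532). Rims1, a Rab3-binding scaffold that interacts with synaptotagmin, fell by 0.32 (limma adjusted p = 0.0132), and this call was lost without Sfpq-/- replicate 1 (-0.30).

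Of 18 genes of the synaptic vesicle membrane, 2 rose and 4 fell, with a median of 0.09. Synpr (synaptoporin) fell by 0.91, and the synapsins, which tether vesicles to actin, fell by 0.74 (Syn2), 0.67 (Syn3) and 0.40 (Syn1), with limma adjusted p of 0.0109 or less. Slc17a7, the vesicular glutamate transporter VGLUT1, rose by 0.75 (limma adjusted p = 0.000362) and Sv2c by 0.69 (limma adjusted p = 0.0109). Without Sfpq-/- replicate 1 the calls of Syn1 (-0.34) and Sv2c (0.66) were lost, and with the stricter filter the Sv2c difference was 0.36 (limma adjusted p = 0.111). Limma called 0 genes of these lists in Sfpq+/- against control; at an unadjusted p under 0.05 there were 2 in the Rab list, 1 among SNARE genes, 2 in the active zone and 3 in the vesicle membrane.

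**Figure D5:**
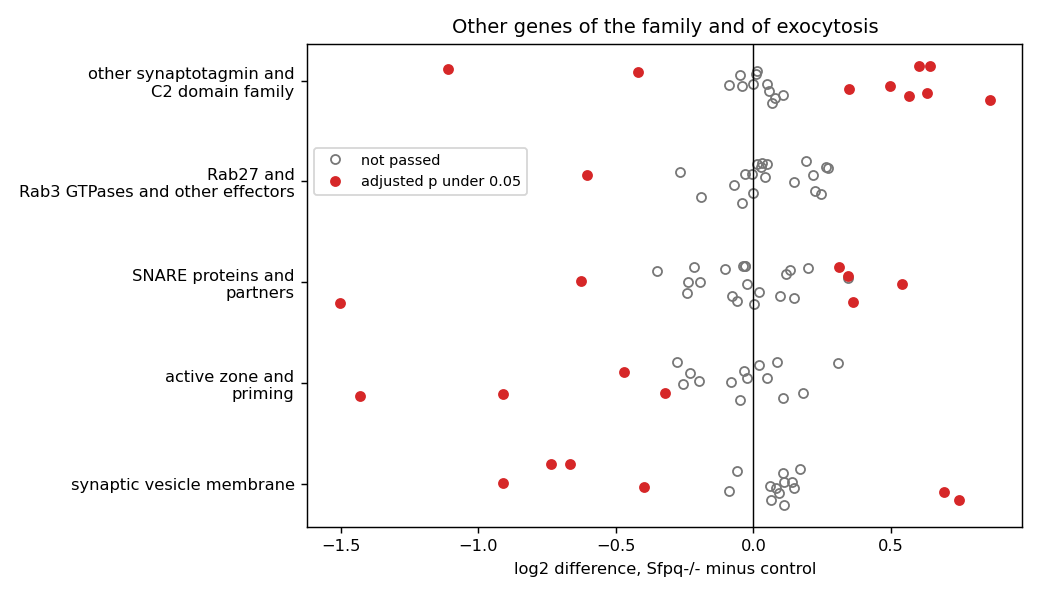
Log2 difference (Sfpq-/- minus control) of each tested gene in the 5 lists of other family genes and of exocytosis, 1 point per gene; filled points passed limma's test at an adjusted p under 0.05 and hollow ones did not. Filled points lie on both sides of 0 in the other family, SNARE and vesicle lists, and on the low side alone in the Rab and active zone lists, the lowest that of Stxbp6 (-1.504).

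Neuron marker levels overlapped between the groups. Over 14 of 15 markers tested, the mean level per array was 9.94 to 10.08 in controls, 10.06 to 10.18 in Sfpq+/- and 9.99 to 10.14 in Sfpq-/-. Of these, Ina and L1cam rose and Ncam1 fell in Sfpq-/-. Of 7 microglial markers, 5 were called higher in Sfpq-/- against control (C1qb, Cx3cr1, P2ry12, Trem2 and Tyrobp, limma adjusted p of 0.0461 or less). Against Sfpq+/-, 1 of the 7 was called higher in Sfpq-/-, C1qb. The mean level of the 7 was 7.81 to 7.85 in controls, 7.78 to 7.94 in Sfpq+/- and 8.04 to 8.11 in Sfpq-/-. Marker counts against control are to be read beside the 5.98% of all genes called higher and the 6.12% called lower. Cortical identity markers were at 10.31 to 10.38 in controls and 10.20 to 10.26 in Sfpq-/-, with 3 of 9 lower (Eomes, Lhx2 and Neurod6). Interneuron markers ran from 8.38 to 9.30 in controls and 8.67 to 8.87 in Sfpq-/-, with a median difference of 0.03. Of the 9, limma called 1, Gad1, higher by 0.98 (adjusted p = 0.0102), while the values of Nkx2-1 (-0.73), Lhx6 (-0.45) and Gsx2 (-0.23) were below 0 and did not pass. The pericyte marker Rgs5 (0.30) and the midline marker Rspo3 (0.32) were each the only one of 7 called in their lists, and no radial glial, erythroid or meningeal marker was called. The part of these shifts in the values of the members was not tested.

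The genes whose levels over the 9 arrays were most like those of Syt1 were Dpp6 and Jazf1 (Pearson's r 0.991 each), Dlgap1 (0.989), St6galnac5 and Tmem132b (0.988 each). Their log2 differences in Sfpq-/- against control were -0.81, -0.92, -0.53, -0.94 and -1.34. Those most like Sytl5 were Fut9 (r 0.997), Cfap20dc, Ntn4, Fam172a and Cacnb2 (0.996 each), with differences of -1.86, -1.09, -0.66, -1.33 and -0.58. These are the highest of all genes tested and are given as a description of 9 arrays in which both members have 3 low values. Their spans run from 162 kb (St6galnac5) to 910 kb (Dpp6) for Syt1 and from 105 kb (Ntn4) to 458 kb (Fam172a) for Sytl5.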

How the data were processed

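The authors deposited 9 arrays of log2 signals per probe set. Per the submitters' processing notes these come from Affymetrix Expression Console 1.2.0.20, and the design text names a further Affymetrix program for exon arrays. The sources used here do not state the background correction, normalization, probe summary or build. That the values are log2 was taken from their range. They were used without further normalization.

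Of 1256831 probe sets, 318760 (25.4%) had 1 gene symbol in the platform annotation, 6684 had several and 931387 had none there; those with several were used in no gene. Symbols were matched to RefSeq names (18006 current, 3993 updated, 63 kept as given, 234 not updated because genes would merge). A probe set was kept if it averaged, over 9 arrays, above the median of all means (5.64), which left 628415. Kept probe sets of a gene were averaged to its level; 16854 genes had the minimum of 3. A total of 20744 probe sets were listed at 0 on all arrays.

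All 9 arrays entered 1 model per gene with 3 group means in R 4.3.3 (limma 3.58.1, functions lmFit and eBayes). P-values were adjusted by Benjamini-Hochberg over all genes, with a threshold of 0.05. Probe sets were fitted in the same way. The fits were tested on simulated data. A fold is the antilog of a log2 difference. The number of arrays limits the precision, and intensities of different genes were not compared.

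The members and the lists were chosen with earlier results of these data known. The text names all 9 members, Sfpq and Xist, the 3 genes of smallest p in each list and every called gene where at most 6 passed, the 5 genes most correlated with Syt1 and Sytl5, and the brightest and extreme probe sets of the members the results turn on. The further family genes, markers and Syt1 probe sets named were chosen after their values were seen. Alternatives were other filters on dim probe sets, the median of probe sets, at least 1 probe set per gene, quantile normalization, the replicate number as a block, Xist as a covariate, array weights (estimated gene by gene), a variance trend, only the 6 arrays compared, and leaving out each array. Promoter windows and spans are from RefSeq tables of GRCm38.p6, matched by symbol. The titles number samples 1 to 3 in each group. Same-numbered samples did not all deviate together, so the numbers were not taken to pair them.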

Additional observations from a re-analysis of the deposited data

How the results depend on the processing

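Of the 19 alternatives, none turned the sign of a called member. Over them the Sfpq-/- minus control difference ran from -0.902 to -0.702 for Syt1, from 0.811 to 1.068 for Syt6 and from -2.433 to -1.784 for Sytl5, the last over 18 because the stricter filter left it no value; Syt2 and Sytl4 had none there either. No member was called in Sfpq+/- against control in any of 168 differences computed, 26 of which had another sign than the reported one. Unfiltered, 13 of the members' probe sets were called in Sfpq-/- against Sfpq+/- instead of 22. With only the 6 arrays compared, 14 were called in Sfpq-/- against control instead of 22. The stricter filter called 1 gene in Sfpq+/- against control. Array weights called 4612 genes (2756 higher, 1856 lower) instead of 2040 in Sfpq-/- against control and 3640 instead of 1994 in Sfpq-/- against Sfpq+/-, and 7 genes of the Rab list, 12 SNARE genes and 9 active zone genes against control. Leaving out 1 array gave 1310 to 2455 genes and 14 to 20 of the members' probe sets in Sfpq-/- against control, 14 to 20 of those probe sets in Sfpq-/- against Sfpq+/-, and 0 to 1 genes in Sfpq+/- against control. The cause was not tested. With the replicate number as a block, 2469, 2367 and 0 genes were called in Sfpq-/- against control, Sfpq-/- against Sfpq+/- and Sfpq+/- against control, and 3, 3 and 0 members, as without it. Deviations of same-numbered control and Sfpq-/- samples correlated at 0.28, 0.01 and 0.57.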
